A study of Mus musculus with 8 samples.

Results

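Gata1, Gata2 and Gata3, the haematopoietic GATA transcription factors, and Zfpm1, the cofactor also called FOG1, were followed through 8 plates of single mouse bone marrow cells. The 4 members were given as a list of symbols and matched 4 of the 27318 gene identifiers in the count tables. Each of the 2712 wells kept held 1 cell labelled LSK (stem and progenitor cells positive for Sca1 and cKit) from Dach1 reporter mice, after magnetic enrichment for cKit and red cell lysis. In these mice a biotin tag precedes the Dach1 stop codon in exon 12 and an IRES-GFP cassette follows it, so that GFP is made from the Dach1 transcript. The allele comes from 1 targeted C57BL/6 embryonic stem cell clone put into Balb/c blastocysts, was bred on to C57BL/6, and lost its neomycin cassette through Flpe. Mice were 8 to 16 weeks old and had no treatment named. The labels describe all 8 plates as Dach1 reporter mice, although the animals listed for the series also include Cas9-Tg, C57BL/6 (CD45.2) and Pep3b (CD45.1), and they do not say how many animals gave a plate. Of the 8 plates, 4 are named LC (replicates 1 to 4) and 4 LCE (replicates 5 to 8). No control arm was used: wells were ranked within their plate by the sorter's fluorescence for Dach1-GFP, CD135, CD150 and cKit, with Sca1 on all plates and CD48 on LCE plates.

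GATA factors are zinc finger proteins that bind DNA at the letters for which they are named. Gata2 maintains stem and early progenitor cells and serves mast cells, Gata1 drives the erythroid, megakaryocytic, mast cell and eosinophil programmes, and Gata3 is known for T cells and innate lymphoid cells. Zfpm1 acts through contact with a GATA zinc finger and is needed with Gata1 for red cells and megakaryocytes. As erythroid cells mature, Gata1 takes over sites that Gata2 held, so a cell with transcripts of both is of interest here.

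The bases before the start sites of Gata1, Gata2 and Zfpm1 are shown because these 3 genes moved together by CD135 and by CD150. Each run is the 250 bases before a RefSeq start, 5′ to 3′ on the gene's strand (GRCm38.p6). Capitals mark matches on either strand to GATA, or to CCNCNCCC, the type of pattern bound by KLF and SP factors. The windows are chrX:7967911-7968160 on the minus strand for Gata1, chr6:88193641-88193890 on the plus strand for the upstream start of Gata2, chr6:88198414-88198663 on the plus strand for its downstream start, and chr8:122281891-122282140 on the plus strand for Zfpm1.
Gata1: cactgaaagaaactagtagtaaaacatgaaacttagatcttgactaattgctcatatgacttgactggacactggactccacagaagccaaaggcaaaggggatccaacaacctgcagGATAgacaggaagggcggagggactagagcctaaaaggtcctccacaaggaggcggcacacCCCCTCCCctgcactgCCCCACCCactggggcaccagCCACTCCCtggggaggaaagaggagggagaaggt
Gata2 upstream start: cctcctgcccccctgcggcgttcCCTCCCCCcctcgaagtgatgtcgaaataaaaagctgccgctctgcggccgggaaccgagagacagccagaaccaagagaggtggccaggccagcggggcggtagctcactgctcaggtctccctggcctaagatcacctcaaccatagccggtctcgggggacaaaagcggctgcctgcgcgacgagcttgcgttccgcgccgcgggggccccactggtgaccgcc
Gata2 downstream start: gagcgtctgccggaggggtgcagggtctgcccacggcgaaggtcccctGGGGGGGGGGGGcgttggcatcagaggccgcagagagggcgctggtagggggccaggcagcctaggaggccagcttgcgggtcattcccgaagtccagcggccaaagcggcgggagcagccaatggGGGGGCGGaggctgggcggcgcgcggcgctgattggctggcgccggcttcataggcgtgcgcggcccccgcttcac
Zfpm1: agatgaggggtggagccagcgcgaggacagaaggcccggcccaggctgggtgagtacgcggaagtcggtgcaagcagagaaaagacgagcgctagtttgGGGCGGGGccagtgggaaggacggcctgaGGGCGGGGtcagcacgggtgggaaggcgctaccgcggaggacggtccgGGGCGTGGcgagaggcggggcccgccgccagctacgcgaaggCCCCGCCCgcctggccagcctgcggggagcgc
The 4 letters GATA occur once in the Gata1 window, at -132 to -129 from the start, in none of the other runs, and in 53.6% of the 32851 mouse windows of this length. CCNCNCCC occurs 3 times at Gata1, 1 time at the upstream and 6 times (overlapping) at the downstream start of Gata2, 4 times at Zfpm1, and in 45.9% of all windows. The longer form AGATAA lies in 9.99% of windows, TGATAA in 7.94%, AGATAG in 7.71% and TGATAG in 6.35%, and none of these is in the runs shown. G and C made 54.0% of the Gata1 window, 67.2% and 74.0% of the Gata2 windows and 73.2% of the Zfpm1 window.

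LC wells had a median of 11586 to 13398 counts by plate and LCE wells 5627 to 7525, with 335 to 340 wells per plate. Levels are in CPM, the count of a gene scaled by the total of its sum, which compares 1 gene between groups and not genes with each other. The index values followed their own transcripts: from the lowest to the highest tercile Dach1 went from 12.6 to 51.9 CPM by GFP, Flt3 (CD135) from 77.8 to 312 CPM by CD135 Kit from 203 to 255 CPM by cKit and Ly6a (Sca1) from 30.7 to 117 CPM by Sca1, all called. Slamf1 (CD150) had too few counts to test. B lineage RNA (at least 3 counts over 8 genes) was in 218 wells (8.04%), a cell type that should lack Gata1 and Gata2 in large part. Of these wells 5.50% (2.88 to 9.42) had a Gata1 count, with the exact 95% binomial interval in parentheses, against 7.02% (6.05 to 8.09) of the other 2494. For Gata2 the shares were 37.2% (30.7 to 43.9) and 49.3% (47.3 to 51.3), for Zfpm1 25.7% (20.03 to 32.0) and 29.1% (27.3 to 30.9), and for Gata3 5.05% (2.55 to 8.85) and 6.98% (6.01 to 8.05), at median depths of 7920.5 and 8942 counts. In the 41 wells with 20 or more B lineage counts, a threshold set after the data were seen, 21.95% (10.6 to 37.6) had a Gata2 count. The shares there were 4.88% (0.596 to 16.5) for Gata1, 2.44% (0.0617 to 12.9) for Gata3 and 29.3% (16.1 to 45.5) for Zfpm1. The intervals cover counting error only. For Gata1, Gata3 and Zfpm1 the intervals of B lineage and other wells overlapped, so a single count is near the level of B lineage wells. For Gata2 they did not, but 37.2% of B lineage wells had a Gata2 count too. The marker comparisons use sums over wells, while the classes of wells with and without a member rest in large part on single counts. Of the 187 wells with Gata1, 130 had 1 count, and of the 1311 with Gata2, 749 had 1 count.

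Gata2 gave 2595 counts in 1311 wells (48.3%), at 92.9 ± 12.7 CPM (SD over 8 plates, as below), with plates from 76.2 to 108 CPM. Zfpm1 gave 1297 counts in 781 wells (28.8%), at 44.7 ± 8.01 CPM. Gata1 gave 333 counts in 187 wells (6.90%), 25 of them from 1 well of replicate 2. It stood at 15.1 ± 5.19 CPM on LC plates (12.3 to 22.9) and 5.65 ± 3.09 CPM on LCE plates (1.71 to 8.60), without overlap. Gata3 went the other way, with 215 counts in 185 wells, 4.66 ± 1.42 CPM on LC plates (3.55 to 6.74) and 13.7 ± 2.97 CPM on LCE plates (12.0 to 18.2). Both gaps remained at equal depth: with wells thinned to 3000 counts Gata1 was in 2.06 to 3.83% of wells on LC plates and 0.303 to 1.81% on LCE plates, and Gata3 in 1.18 to 2.94% and 3.69 to 4.82%. The set of plates cannot be told apart from the animals, the sort or the library preparation, and no label ties a set to animals. The sets also differed technically. A spike-in share of 3.27 to 4.36% was found on LC plates, against 0.0% on each LCE plate, and CD48 was recorded on LCE plates alone. The part of each in these gaps was not tested. How many of all genes separate the sets without overlap is not given here. Of the other family members Gata4 and Zfpm2 had no count and Gata5 and Gata6 had 1 count each. Trps1, a GATA-type repressor, had 792 counts and was called in none of the comparisons below.

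For each marker the lowest and highest terciles were summed per plate and compared with edgeR's quasi-likelihood test with the plate as a block. Adjusted p is the Benjamini-Hochberg value over all genes tested, and a gene is called when it is under 0.05. Fewer cells that use a gene and less of its RNA per cell cannot be told apart in such sums.

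Gata2 followed Dach1-GFP on every plate. In the lowest tercile it stood at 44.5, 50.8, 49.9 and 55.8 CPM on LC plates and 64.6, 63.1, 63.5 and 57.7 CPM on LCE plates, and in the highest at 122, 161, 116 and 144 and 165, 109, 133 and 177 CPM. The arms did not overlap, and the share of all genes whose arms do not overlap is not given here. The log2 difference, low minus high, was -1.33 ± 0.09 (SE, adjusted p = 3.65e-17, 8 of 8 plates), where 7.74% of 10312 genes were called (3.8% higher and 3.94% lower). Zfpm1 was also lower in GFP-low wells, at 34.4 ± 11.3 against 59.2 ± 10.2 CPM (-0.70 ± 0.13, adjusted p = 8.93e-05, 8 of 8 plates). On LC plates alone that difference was -0.43 ± 0.16 (adjusted p = 0.145). Gata1 had 7.66 ± 6.53 and 14.2 ± 8.35 CPM and was not called (-0.79 ± 0.29, adjusted p = 0.0869), with replicates 4 and 5 in the other direction. It was called without replicate 4 (-1.26, adjusted p = 0.00165). Gata3 was not called (-0.20 ± 0.30, adjusted p = 0.814, 4 plates in each direction).

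CD135, the Flt3 receptor of multipotent and lymphoid-primed progenitors, separated all 3 of Gata1, Gata2 and Zfpm1, and the largest log2 difference was that of Gata1. In the lowest tercile Gata1 stood at 18.5, 55.6, 29.4 and 26.8 CPM on LC plates and 12.0, 5.76, 20.8 and 15.8 CPM on LCE plates. In the highest it was 8.48, 5.95, 3.98 and 4.10 CPM on LC plates, and on LCE plates it rested on 1, 0, 1 and 2 counts. Each plate was lower in its CD135-high wells, although the ranges over plates overlapped. The difference, high minus low, was -2.59 ± 0.27 (adjusted p = 6.93e-10), where 11.2% of 10441 genes were called (6.05% higher and 5.12% lower). Zfpm1 had 28.0 ± 9.92 CPM in the high and 65.2 ± 9.73 CPM in the low tercile (-1.14 ± 0.13, adjusted p = 1.62e-08). Gata2 had 62.9 ± 6.00 and 135 ± 22.2 CPM (-1.07 ± 0.09, adjusted p = 3e-13). For both of these the arms did not overlap, and again the share of all genes without overlap is not given. Gata3 was not called (-0.66 ± 0.29, adjusted p = 0.158). It was called on LCE plates alone (-1.11 ± 0.32, adjusted p = 0.0251), but the difference between the sets of plates was not (adjusted p = 0.594).

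CD150, used to enrich stem cells and megakaryocyte-biased progenitors, gave smaller differences of the opposite sign. Gata1 had 17.8 ± 14.9 CPM in the highest and 6.67 ± 4.07 CPM in the lowest tercile (1.37 ± 0.25, adjusted p = 0.00107). Zfpm1 had 59.1 ± 12.1 and 37.3 ± 11.9 CPM (0.68 ± 0.14, adjusted p = 0.00509), and Gata2 112 ± 24.6 and 85.8 ± 9.90 CPM (0.37 ± 0.09, adjusted p = 0.0251). All 3 were higher on 8 of 8 plates, where 2.06% of 10380 genes were called (1.51% higher and 0.549% lower); on replicate 5 Gata1 stood at 3.96 against 3.94 CPM. Gata3 was not called (-0.43 ± 0.31, adjusted p = 0.650). The Gata2 call was lost with wells split at the plate median (adjusted p = 0.140) and with DESeq2 (adjusted p = 0.186). With each well thinned to 3000 counts, Gata2 and Zfpm1 missed the threshold (adjusted p = 0.564 and 0.275).

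By cKit, the stem cell factor receptor, Gata2 rose from 78.5 ± 12.0 to 108 ± 22.4 CPM (0.41 ± 0.09, adjusted p = 0.00330). Zfpm1 rose from 38.4 ± 8.38 to 53.7 ± 11.5 CPM (0.43 ± 0.12, adjusted p = 0.0316). Both were higher on 7 of 8 plates, replicate 4 being the exception, where 3.66% of 10451 genes were called (1.88% higher and 1.79% lower). Gata1 (0.49 ± 0.27, adjusted p = 0.429) and Gata3 (-0.39 ± 0.29, adjusted p = 0.627) were not called. Without B lineage and mature cell wells neither call held (0.31, adjusted p = 0.0561 for Gata2, and 0.39, adjusted p = 0.0742 for Zfpm1), beside the 0.41 and 0.43 in all wells.

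B lineage wells moved with the ranks: 148 lay in the lowest and 30 in the highest tercile of GFP, 123 and 48 for CD135, 38 and 116 for CD150, and 96 and 85 for cKit, each of 901 wells. Without them and 4 further wells rich in mature cell RNA, Gata2 differed by -1.32 by GFP and -1.13 by CD135, much as in all wells. Gata1 was under the count filter for CD135 in this set and was compared by its ratio per plate, an alternative added after the data were seen. It had 22.8 ± 15.1 CPM in the lowest and 3.44 ± 3.03 CPM in the highest tercile, lower on 8 of 8 plates (exact sign-flip permutation test, two-sided, p = 0.00781, the smallest that 8 plates can give).

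**Figure D1:**
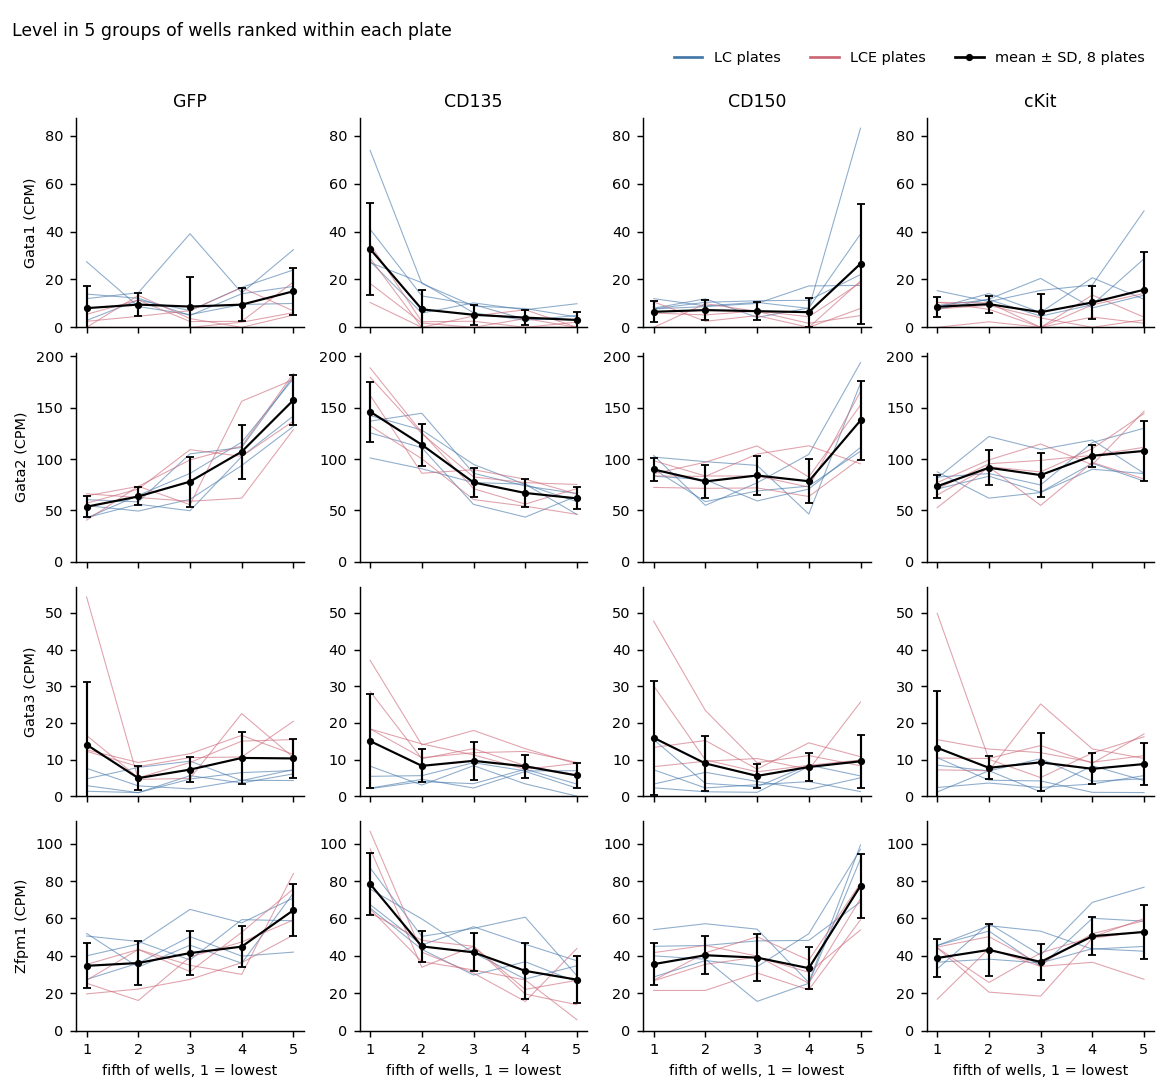
CPM of each member in quintiles of wells ranked within a plate by GFP, CD135, CD150 or cKit fluorescence; single plates and the mean ± SD of 8 plates are drawn. Gata2 climbs from 53.6 to 157 CPM over GFP, while Gata1 is highest in the lowest quintile of CD135 (32.7 CPM) and the highest of CD150 (26.6 CPM).

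The plot of levels by quintile shows that the shape differed between markers. Over GFP Gata2 climbed from 53.6 ± 10.3 through 63.6, 78.1 and 107 to 157 ± 24.5 CPM, and over CD135 it declined from 146 ± 29.2 to 61.7 ± 10.8 CPM. Gata1 stood at 32.7 ± 19.1 CPM in the lowest quintile of CD135, at 7.53 ± 8.00 CPM in the next and at 3.08 ± 3.39 CPM in the highest, so that most of its change lay at the low end. Over the lower 4 quintiles of CD150 Gata1 lay between 6.34 and 7.21 CPM, and in the highest it reached 26.6 ± 25.1 CPM. Zfpm1 had the same form, between 33.4 and 40.3 CPM and then 77.4 ± 17.2 CPM, as did Gata2, between 78.3 and 89.9 CPM and then 138 ± 38.3 CPM. Between the highest and lowest quintile, 10 of 16 gene and marker pairs passed after adjustment over the 16 (exact sign-flip permutation tests over 8 plates, two-sided). For Gata1 by CD135 the log2 ratio, highest over lowest, was -3.42 ± 1.08 (SD, exact p = 0.00781, adjusted 0.0156). Gata1 by GFP did not pass (1.34 ± 1.40, exact p = 0.0469, adjusted 0.0682), and neither did Gata3 for any marker.

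The markers are related to each other, so each was also fitted with the other 3 held, on 119 sums of wells split at the plate medians. Many sums of a plate entered as separate observations, so p-values of this fit rest mostly on spread between groups of wells within plates. How a difference varied between plates does not enter them as it does in the tercile fits. Gata2 kept its differences by GFP (-0.74 ± 0.12, adjusted p = 3.4e-07) and CD135 (-0.47 ± 0.12, adjusted p = 0.00260), where median splits of 1 marker alone gave -0.98 and -0.84. It was not called by CD150 (0.05 ± 0.11, adjusted p = 0.981) or cKit (adjusted p = 0.999). Gata1 differed by CD135 as much as before, -2.001 ± 0.27 (adjusted p = 8.48e-10) against -2.002 ± 0.23 for CD135 alone. By GFP its value changed sign, from -0.15 ± 0.23 alone to 0.61 ± 0.26 with the others held, and neither was called (adjusted p = 0.825 and 0.170). Zfpm1 kept its CD135 difference (-0.55 ± 0.15, adjusted p = 0.00537) but was not called by GFP (-0.23 ± 0.15, adjusted p = 0.431). Gata3 was called for none of the 4. This fit called 5.53% of 10751 genes for GFP, 8.02% for CD135, 0.567% for CD150 and 0.288% for cKit.

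**Figure D2:**
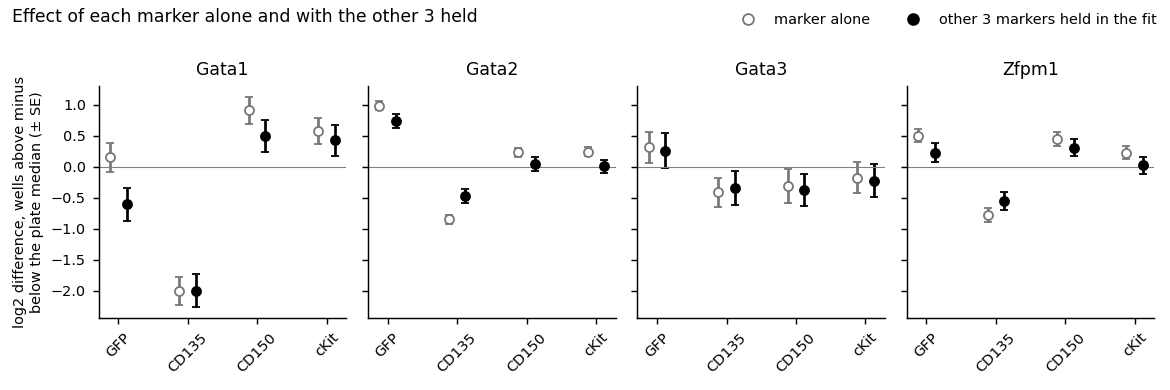
Log2 difference of wells above minus below the plate median (± SE; GFP therefore has the opposite sign from the low minus high values in the text) for each member and marker, with the marker alone and with the other 3 in the fit. The CD135 difference of Gata1 is near -2.001 both ways, and its GFP values lie on either side of 0.

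Effects on LC and LCE plates were set against each other in an interaction term. No member passed for any marker or well comparison. The nearest by unadjusted p was Zfpm1 by GFP, at -0.43 on LC and -1.19 on LCE plates (adjusted p = 0.389). The term called 0.0873% of genes for GFP, 0.642% for CD135, 0.684% for CD150 and 0.124% for cKit. For wells with and without Gata1, Gata2, Gata3 and Zfpm1 it called 0.15%, 0.0788%, 0% and 0.0944%. For Gata3 wells, with no gene called by edgeR, 467 genes had an unadjusted p under 0.05.

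By Sca1, Gata1 fell from 18.5 ± 13.3 CPM in the lowest to 4.02 ± 3.28 CPM in the highest tercile (-2.12 ± 0.30, adjusted p = 3.11e-07, 8 of 8 plates), where 11.8% of 10162 genes were called (5.63% higher and 6.2% lower). Gata2 (-0.12 ± 0.09, adjusted p = 0.410), Zfpm1 (-0.27 ± 0.13, adjusted p = 0.167) and Gata3 (0.74 ± 0.28, adjusted p = 0.0739) were not called. CD48, which marks more advanced progenitors, was available on 4 LCE plates, where 11.5% of 9076 genes were called (7.08% higher and 4.45% lower). Gata3 was called here, at 9.90 ± 2.62 CPM in CD48-high and 20.03 ± 5.37 CPM in CD48-low wells (-1.01 ± 0.32, adjusted p = 0.0294). Zfpm1 (-0.90 ± 0.18, adjusted p = 0.000282) and Gata2 (-0.47 ± 0.13, adjusted p = 0.00684) were lower as well, all 3 on 4 of 4 plates, and Gata1 had too few counts.

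LCE wells were further divided at the plate medians of CD135, CD48 and CD150, as a description over 4 plates. The 170 wells low for CD135, low for CD48 and high for CD150 held Gata1 at 23.1 ± 8.30 CPM, Gata2 at 173 ± 36.4 CPM and Zfpm1 at 96.7 ± 10.9 CPM. In the 210 wells low for all 3 these were 6.07 ± 4.99, 109 ± 19.8 and 51.8 ± 18.8 CPM. Gata3 had its highest mean in the latter, 33.9 ± 22.7 CPM, against 18.8 ± 11.1 CPM in the former, and plates of both groups overlapped. In the 4 CD135-high groups Gata1 had 8 counts in all.

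Wells with at least 1 count of a member were then compared with wells of the same plate without it. Gata1 wells were deeper than the rest: wells with Gata1 and Gata2 had a median of 13371.5 counts, those with Gata1 alone 12755, with Gata2 alone 9664 and with neither 7830.5. Zfpm1 was higher in Gata1 wells, at 112 ± 46.0 against 40.2 ± 6.35 CPM (1.20 ± 0.17, adjusted p = 2.16e-09, 8 of 8 plates), where 3.31% of 10655 genes were called (1.33% higher and 1.98% lower). In thinned wells, where 9 genes were called in all, it was not called (1.03 ± 0.43, adjusted p = 0.238). Gata2 was higher too. In Gata1 wells it stood at 95.3, 167, 112 and 112 CPM on LC plates and 199, 339, 106 and 159 CPM on LCE plates, the value on replicate 6 coming from 3 wells. In wells without Gata1 it stood at 75.8, 87.8, 75.4 and 101.4 and 104, 73.2, 96.6 and 99.6 CPM. Each plate was higher, the ranges overlapped, and the difference was 0.56 ± 0.13 (adjusted p = 0.00348). This call was lost without replicate 2 (0.48, adjusted p = 0.0825), with 2 or more Gata1 counts (0.27 ± 0.24, adjusted p = 0.585) and in thinned wells (0.36 ± 0.37, adjusted p = 0.628).

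Seen from the other members, Gata2 wells had more Gata1, at 14.2 ± 8.30 against 6.39 ± 4.41 CPM (1.14 ± 0.22, adjusted p = 0.00184, 8 of 8 plates), where 0.578% of 11416 genes were called (0.237% higher and 0.342% lower). Zfpm1 wells had more Gata1, at 19.1 ± 10.2 against 5.99 ± 3.80 CPM (1.63 ± 0.23, adjusted p = 3.93e-07, 8 of 8 plates), and more Gata2 (0.33 ± 0.08, adjusted p = 0.00904, 7 of 8 plates), where 1.31% of 11650 genes were called (0.79% higher and 0.524% lower). In thinned wells Gata2 was not called (0.44 ± 0.15, adjusted p = 0.599) and Gata1 had too few counts to test. The Gata2 call was kept in 8 of 14 alternatives. These comparisons reuse the same wells as those for Gata1 and are not independent of them. No member was called in Gata3 wells, where 0.0194% of 10321 genes were called (0% higher and 0.0194% lower).

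**Figure D3:**
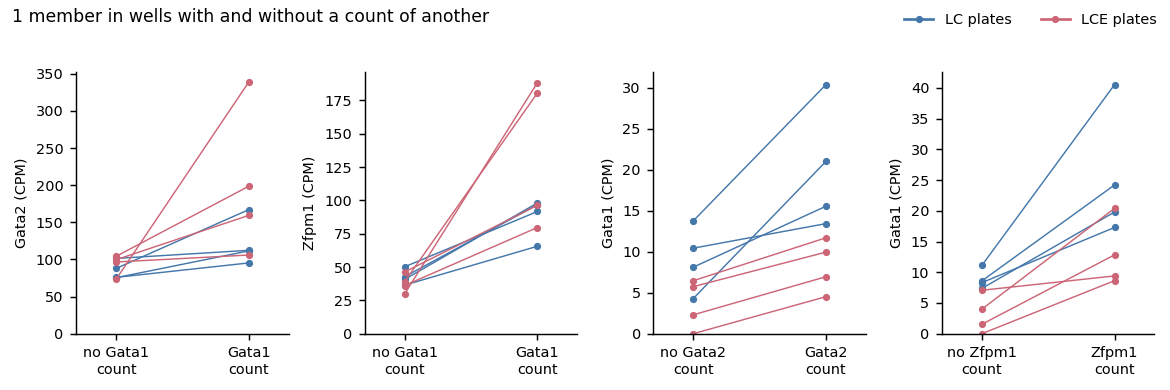
CPM of 1 member in wells without and with a count of another, with 1 line per plate. Gata1 by Gata2 goes from a mean of 6.39 to 14.2 CPM and Zfpm1 by Gata1 from 40.2 to 112 CPM, each higher on 8 of 8 plates.

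Graded by Gata2 count, Gata1 stood at 6.39 ± 4.41 CPM in 1401 wells with none, 9.89 ± 4.03 CPM in 749 wells with 1, 12.9 ± 11.7 CPM in 405 wells with 2 to 3 and 39.1 ± 35.9 CPM in 157 wells with 4 or more. The last class ran from 0 to 93.5 CPM between plates. By Zfpm1 count Gata1 went from 5.99 ± 3.80 CPM with none to 58.7 ± 43.3 CPM in 61 wells with 4 or more. Plate means of Gata2 by Gata1 count had no such order, with 89.2 ± 12.9, 198 ± 147, 112 ± 65.8 and 131 ± 108 CPM for 0, 1, 2 to 3 and 4 or more counts. The last class held 17 wells on 5 plates, and the highest plate of the class with 1 count stood at 483 CPM. The share of wells with Gata2 rose over these classes, from 47.1% through 60.8% and 72.5% to 82.4%. Their median depth rose as well, from 8599 to 22349 counts. Median depth went from 8010 to 12795 counts over the Gata2 classes, and its part was not tested here.

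Whether Gata1 and Gata2 met in 1 well more often than their shares on a plate give was asked at 3000 counts per well, in the 2672 wells that reach this depth. In 1 random draw 55 wells had Gata1 and 613 had Gata2; 20 had both, against 12.2 expected. The mean log2 ratio, with 0.5 added to both numbers, was 0.58 ± 0.29 (SD), above 0 on 8 of 8 plates (exact sign-flip permutation test, two-sided, p = 0.00781, adjusted over 6 pairs 0.0469). A plate held 1 to 5 such wells, and the value moved with the draw: 3 further draws, made after the data were seen, gave 0.51, 0.53 and 0.15 (exact p = 0.00781, 0.0781 and 0.562). The mean over all possible draws, also added then, was 22.2 wells against 14.7, a mean log2 ratio of 0.51 ± 0.29, above 0 on 7 of 8 plates (exact permutation p = 0.0156, adjusted 0.0312). With expected numbers taken within quadrants of CD135 and CD150 the first draw gave 0.50 ± 0.33 (exact permutation p = 0.00781). Without thinning 122 wells had both against 98.0 expected. With at least 2 counts of each, 27 wells did against 13.8 (exact permutation p = 0.109).

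Over all draws Gata1 met Zfpm1 in 14.7 wells against 8.10 (0.67 ± 0.19, 8 of 8 plates, exact permutation p = 0.00781, adjusted 0.0312). The first draw passed too, with 17 wells, and the 3 further draws did not (0.33, 0.31 and 0.15). An LCE plate was expected to hold 0.122 to 0.781 wells of this pair over all draws. For Gata1 with Gata2 it was 0.269 to 2.06 wells. Very few wells thus set the sign on LCE plates for both pairs. Gata1 met Gata3 in 0.452 wells against 1.43, below 0 on 7 of 8 plates (exact permutation p = 0.0156, adjusted 0.0312). Nothing is read from this p. No well of an LCE plate held both, against 0.0524 to 0.295 expected per plate, so each of those plates had to fall below 0. The 0.5 added to both numbers set only the size of the ratio. Without thinning 10 wells held both against 11.2 (exact permutation p = 0.148), all 10 on LC plates. Gata2 with Zfpm1 (85.3 against 73.7 wells, exact permutation p = 0.0703), Gata2 with Gata3 and Gata3 with Zfpm1 did not pass. At 5000 counts, in the 2323 wells that reach it, the mean over all draws was 0.49 ± 0.30 for Gata1 with Gata2 (exact permutation p = 0.00781, adjusted 0.0234, 8 of 8 plates). Gata1 with Zfpm1 (0.85 ± 0.32, exact permutation p = 0.00781, adjusted 0.0234, 8 of 8 plates) and Gata2 with Zfpm1 (0.18 ± 0.15, exact permutation p = 0.0234, adjusted 0.0352, 7 of 8 plates) passed as well. Gata1 with Gata3 was under the threshold too (-0.39 ± 0.29, exact permutation p = 0.0156, adjusted 0.0312), and again nothing is read from this p.

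**Figure D4:**
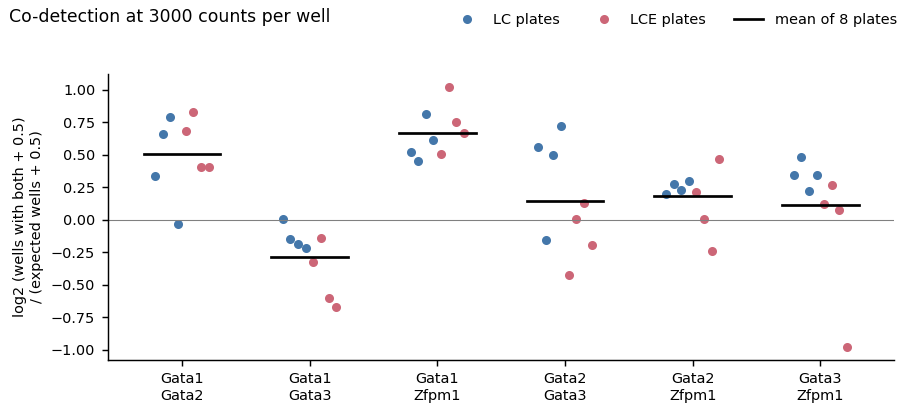
Log2 ratio of wells with both members to the number expected from their shares on a plate, by pair, as the mean over all draws; points are plates and bars their mean. Over all draws of 3000 counts the mean is 0.67 for Gata1 with Zfpm1 and 0.51 for Gata1 with Gata2.

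Without thinning, wells with both Gata1 and Gata2 (122, or 4.50%) sat low in CD135 and high in CD150. Of these wells 98 were on LC and 24 on LCE plates, so the median of an LCE plate rests on 3 to 7 wells. The mean over plates of their median within-plate percentile was 19.7 ± 10.6 for CD135 and 78.6 ± 13.0 for CD150, against 43.8 ± 5.22 and 51.6 ± 2.63 in the 1189 wells with Gata2 alone. The differences were -24.1 points for CD135 and 27.0 points for CD150, of 1 sign on 8 of 8 plates (exact sign-flip permutation test, two-sided, p = 0.00781, adjusted over 4 markers 0.0156). GFP differed by 9.25 points (exact permutation p = 0.141) and cKit by 2.09 points (exact permutation p = 0.750). Thinned to 3000 counts, with 20 wells in the class, the differences were -15.8 points for CD135 (exact permutation p = 0.109) and 22.6 points for CD150 (exact permutation p = 0.0469, adjusted 0.188), so neither call held. The 65 wells with Gata1 alone, from 7 plates, lay at 35.0 ± 19.4 for CD135 and 47.2 ± 15.1 for CD150 and did not pass against Gata2-alone wells for any marker (smallest exact permutation p = 0.250).

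**Figure D5:**
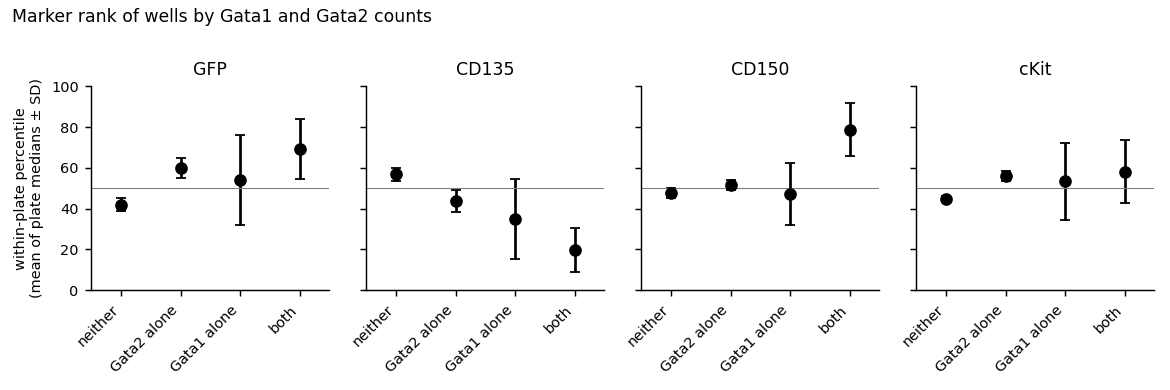
Within-plate percentile of each marker (mean of plate medians ± SD, no thinning) for wells with neither gene, 1 of them or both. Wells with both stand at 19.7 for CD135 and 78.6 for CD150.

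The genes most like a member were taken as those with the largest log2 difference between wells with and without it, called and of 1 sign on 8 of 8 plates. These genes and the lists below were read in unthinned wells, where Gata1 wells were deeper, and were not read at equal depth. For Gata1 the first was Epor, the erythropoietin receptor (43.5 against 1.71 CPM, 4.27 ± 0.35, adjusted p = 4.83e-26). It was followed by Aqp1, the red cell water channel (3.499 ± 0.27), Mfsd2b, a sphingosine-1-phosphate exporter (2.47 ± 0.30), Blvrb, biliverdin reductase B (2.45 ± 0.21), Ctse, cathepsin E (2.39 ± 0.22), and Gfi1b, a repressor needed for red cells and megakaryocytes (2.08 ± 0.29). Mgst2 (-2.11 ± 0.50), Ltb, lymphotoxin beta (-2.03 ± 0.37), and Tbkbp1 (-1.88 ± 0.45) fell most in Gata1 wells. For Gata2 the first was Gata1 itself, then Itga2b, the CD41 integrin (44.1 against 22.5 CPM, 0.95 ± 0.11), Mfsd2b (0.93 ± 0.22), Apoe, apolipoprotein E (0.74 ± 0.10), Cpa3, mast cell carboxypeptidase (0.71 ± 0.11), and Shank3 (0.70 ± 0.16). Among the largest falls in Gata2 wells were Pax5, a B lineage transcription factor (-1.19 ± 0.25), and Ly6c2 (-1.02 ± 0.10).

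For Zfpm1 the most alike were Aqp1 (2.15 ± 0.22), Pf4, platelet factor 4 (39.4 against 9.69 CPM, 1.90 ± 0.19), Gata1, Mfsd2b (1.57 ± 0.23), Abcb4 (1.51 ± 0.19) and Aldh1a1 (1.13 ± 0.31). Sstr2 (-1.29 ± 0.23), Bank1 (-1.18 ± 0.29) and Id2, an inhibitor of E proteins (-1.15 ± 0.26), fell most. In Gata3 wells 2 genes were called, both lower: Igkc, an immunoglobulin light chain (-1.26 ± 0.14, 8 of 8 plates), and Ly6c2 (-1.35 ± 0.24, 5 of 8 plates), the latter named after its value was seen.

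Of the erythroid genes, 12 of 13 tested rose in Gata1 wells and 0 fell, with a median log2 difference of 2.45 against -0.04 over all genes tested. Besides Epor and Aqp1 these were led by Car1, carbonic anhydrase 1 (4.03 ± 0.14), and Klf1, the erythroid Krüppel-like factor (3.90 ± 0.30), each higher on 7 of 8 plates. In Zfpm1 wells 10 of 13 rose (median 1.27), led by Ermap, a red cell membrane protein (2.58 ± 0.23), and Car1 (2.22 ± 0.14), each on 7 of 8 plates. In Gata2 wells 2 of 13 rose, Nfe2 (0.31 ± 0.07) and Car2 (0.19 ± 0.04), with a median of -0.09. In Gata3 wells 0 of 11 were called by edgeR, and 0 had an unadjusted p under 0.05. Alpha and beta globin genes are near-identical copies and their counts may be shared.

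Of 10 megakaryocyte and platelet genes tested, 4 rose in Gata1 wells, 4 in Gata2 wells and 4 in Zfpm1 wells, and none fell. Pf4 was among them each time (1.67 ± 0.31, 1.42 ± 0.21 and 1.90 ± 0.19), although in Gata1 wells it was higher on 4 of 8 plates. Itga2b (0.85 ± 0.21 in Gata1 wells) rose in all 3 comparisons, F2r, a thrombin receptor, in Gata1 (0.86 ± 0.26) and Zfpm1 wells (0.57 ± 0.15), and Cd9 in Gata2 wells (0.49 ± 0.13). Of 6 mast cell and basophil genes Il1rl1, the IL-33 receptor (1.68 ± 0.34), and Cpa3 (0.82 ± 0.17) rose in Gata1 wells, and Slc18a2, a monoamine transporter (0.85 ± 0.15), and Cpa3 in Gata2 wells. In Zfpm1 wells 0 of 6 were called by edgeR, with 2 at an unadjusted p under 0.05.

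Partners of GATA factors in haematopoietic complexes changed in part. Of 14 tested in Gata1 wells Klf1, Gfi1b and Tal1 (0.51 ± 0.15) rose and Erg (-0.53 ± 0.16) and Lmo2 (-0.31 ± 0.09) fell, with a median of -0.17. In Gata2 wells 0 of 13 were called by edgeR (3 at an unadjusted p under 0.05), and in Zfpm1 wells Gfi1b alone (0.999 ± 0.21) of 13. Of 7 stem cell genes Hlf fell in Gata1 wells (-0.79 ± 0.12). B lineage genes fell in 6 of 8 cases in Gata2 wells; without B lineage and mature cell wells Gata1 in Gata2 wells differed by 1.17 (adjusted p = 0.00189). Over all alternatives with a value this p ran from 0.000157 to 0.999998. Whether these lists differ between the members was not tested.

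The same lists were read in the marker comparisons. In CD135-high wells 9 of 10 erythroid genes fell (median -1.02), led by Car1 (-2.99 ± 0.13), as did 8 of 9 megakaryocyte and platelet genes and 5 of 5 mast cell and basophil genes. Among the partners Gfi1b (-1.88 ± 0.26), Tal1 (-0.61 ± 0.11) and Fli1 (-0.38 ± 0.10) fell and Erg rose (0.38 ± 0.10). In GFP-low wells 8 of 9 megakaryocyte and platelet genes fell, led by Pf4 (-1.97 ± 0.21), as did 7 of 7 stem cell genes and 4 of 5 mast cell genes. The erythroid list went the other way from Gata2, with 7 of 10 higher in GFP-low wells and 2 lower, among them Hba-a2 (2.01 ± 0.28, higher on 7 of 8 plates), Car1 (1.52 ± 0.21, 6 of 8), Aqp1 (1.14 ± 0.31, 4 of 8) and Hbb-bs (1.004 ± 0.24, 5 of 8), all 4 higher. In CD150-high wells, where Gata1 rose, 1 of 10 erythroid genes rose and 4 fell. The 4 that fell were the 4 globin genes of that list, and no other erythroid gene fell. Of 9 megakaryocyte and platelet genes there 3 rose and none fell. In cKit-high wells 2 of 12 erythroid genes rose and 3 fell, and these 3 were the globin genes tested. There 3 of 9 megakaryocyte and platelet genes rose. By GFP the summed CPM of 4 globin genes ran from 4.34 to 869 between plates in GFP-low and from 22.3 to 154 in GFP-high wells, and the part of red cell RNA in these counts was not tested.

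In the GRCm38 annotation Gata1 spans chrX:7959260-7978071, Gata2 chr6:88193891-88207032, Gata3 chr2:9857078-9890034 and Zfpm1 chr8:122282141-122337251. The longest run of bases that transcripts of 2 of the GATA paralogs share is 23 (Gata1 and Gata2), and 14 within the last 500 bases (Gata2 and Gata3), near which the 3′ tags of CEL-seq2 fall. Gata3 overlaps the antisense gene Gm13256, which had 3 counts. It also overlaps the same-strand gene 9230102O04Rik and the opposite-strand gene 4930412O13Rik, and neither is among the identifiers of the count tables. Zfpm1 lies within the same-strand gene model Gm20388, not used here. The labels and files read here do not say whether counting used strand.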

How the data were processed

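CEL-seq2, a 3′ tag method that reads index-sorted cells in 384-well plates, was used by the authors, and their deposited tables hold whole-number counts per gene and well, which do not tell reads from molecules. The sources read here name no aligner or counter. GRCh38, a human build, stands in the submitters' processing notes, but the identifiers are mouse, so gene models come from the GRCm38 annotation (27249 of 27318 identifiers matched). Fluorescence intensity from the sorter was deposited on a linear scale and used only as a rank within a plate. Of 2987 sorted wells, those with at least 1000 counts, 500 genes and at most 20% mitochondrial counts were kept, and 13 records without a barcode were left out. Doublets were not called. Promoter sequences are RefSeq's.

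Counts were summed per plate and arm and tested with edgeR 4.0.16 in R 4.3.3 by its quasi-likelihood test, after filterByExpr and TMM scaling and with a term for each plate (Benjamini-Hochberg adjustment over all genes), with DESeq2 1.42.0 as an alternative for the markers. Both arms of a plate share a sort and a library, and their deviations correlated with r from 0.177 to 0.547. As no label ties plates to separate animals, p-values reflect plate-to-plate spread alone, except in the fit of all 4 markers, and may be technical in origin. In that fit they reflect mostly spread between groups of wells within plates. On data simulated for the GFP comparison over 10312 genes, 59 of 100 genes changed by 1 on the log2 scale were called, 1 of 100 changed by 0.5, and 0 unchanged genes. Exact sign-flip tests over 8 plates cannot go below a p of 0.00781.

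The members and gene lists were chosen with earlier results of these data known. Genes named from comparisons of wells are the 6 largest rises and 3 largest falls among called genes of 1 sign on 8 of 8 plates, up to 4 called per list by size, and the markers' own transcripts; some of these genes are not reported here. Alternatives were no block, no filter on low counts, thinned wells, median splits, each set of plates, wells without B lineage or mature cell RNA, a minimum of 2 counts, and leaving out each plate. The further draws, the means over all draws and the ratios per plate were chosen after seeing the data.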

Additional observations from a re-analysis of the deposited data

Results flagged for a closer look

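Gata3 by cKit had 1 plate far from the others. On replicate 1 its log2 ratio of the highest to the lowest tercile was -3.10, from 1 count against 11, while the next lowest plate stood at -1.03. The gap took 0.569 of the whole range, above Dixon's 95% critical value for 8 plates. Of 20 groups of plate values examined in this way 1 passed, and chance passes about 1 in 20.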

How the results depend on the processing

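The directions of all called differences of the members held under every alternative run (Sca1 and CD48 were fitted once, with none). The values under alternatives other than leaving out a plate include counts of genes called. Of these values 161 stayed on their side of the threshold or, for counts of genes, moved by at most 1.5 times. A further 41 lost the threshold, 4 gained it and 37 counts of genes moved by over 1.5 times. The cause of these changes was not tested except where fewer plates or counts enter. The calls for Gata2 by GFP and for Gata1, Gata2 and Zfpm1 by CD135 held under each alternative that gave a value. For Gata1 only 9 alternatives gave a value, against 16 for each of the others.

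Without the replicate block 188, 175, 8 and 10 genes were called for GFP, CD135, CD150 and cKit, where the fits with the pairing called 798, 1167, 214 and 383. For wells with Gata1, Gata2, Gata3 and Zfpm1 it was 119, 1, 0 and 0 against 353, 66, 2 and 153, the counts of 0 by edgeR standing beside 434 and 350 genes at an unadjusted p under 0.05. The calls lost were those by CD150 of Gata1 (1.34), Gata2 (0.38) and Zfpm1 (0.65), by cKit of Gata2 (0.46) and Zfpm1 (0.46), of Gata2 in Gata1 wells (0.55), of Gata1 in Gata2 wells (1.15), and of Gata1 (1.69) and Gata2 (0.32) in Zfpm1 wells, with log2 differences close to those with the block.

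DESeq2 called 444, 581, 83 and 179 genes for the 4 markers, with Gata2 by CD150 (0.37) and Zfpm1 by cKit (0.45) not called. In wells thinned to 3000 counts 275, 209, 52 and 115 genes were called for the markers and 9, 16, 11 and 8 for wells with a member. Not called there were Gata2 (0.24) and Zfpm1 (0.52) by CD150, Zfpm1 by cKit (0.29), Gata2 (0.36) and Zfpm1 (1.03) in Gata1 wells, and Gata2 in Zfpm1 wells (0.44). Median splits lost Gata2 by CD150 (0.23) and Gata2 (0.24) and Zfpm1 (0.23) by cKit. Without B lineage and mature cell wells the same 3 were lost (0.34, 0.31 and 0.39), and 0 genes were called by edgeR in Gata3 wells, with 543 at an unadjusted p under 0.05. With at least 2 counts against 0, 885, 159 and 614 genes were called in Gata1, Gata2 and Gata3 wells, and Gata2 in Gata1 wells was not (0.27). Over 8 plates only 57, 562 and 21 wells had 2 or more counts of these genes. The sums for Gata1 and above all Gata3 thus held few wells per plate, and no Gata3 programme is read from the 614.

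LC plates alone called 437, 84 and 177 genes for GFP, CD150 and cKit and 174, 30, 12 and 75 for wells with a member. There Zfpm1 by GFP (-0.43), Gata2 (0.33) and Zfpm1 (0.71) by CD150, Gata2 (0.25) and Zfpm1 (0.32) by cKit, Gata2 in Gata1 wells (0.51), Gata1 in Gata2 wells (1.11) and Gata2 in Zfpm1 wells (0.38) were not called. LCE plates alone called 506, 350 and 466 genes for GFP, CD135 and CD150 and 77, 40 and 10 for Gata1, Gata2 and Gata3 wells, without Gata2 in Gata1 (0.75) or Zfpm1 wells (0.26). The meeting of Gata1 with Gata2, in mean log2 ratio, did not pass with 2 or more counts (0.52), 1 draw of 5000 counts (0.42), LC (0.48) or LCE plates alone (0.69; 4 plates cannot go below an exact p of 0.125), or 2 of the 3 further draws (0.53 and 0.15).

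Leaving out each plate in turn gave 0.28 to 0.42 for Gata2 by CD150 (lost without replicates 4, 5, 7 or 8), 0.35 to 0.56 for Zfpm1 by cKit (lost without 2, 5, 6, 7 or 8), 0.48 to 0.66 for Gata2 in Gata1 wells (lost without 2), 0.27 to 0.39 for Gata2 in Zfpm1 wells (lost without 2 or 4) and 0.52 to 0.64 for the meeting of Gata1 with Gata2 (7 of 7 plates above 0 each time, at an exact permutation p of 0.0156, the smallest 7 plates allow; the p adjusted over 6 pairs was 0.0469 or 0.0938, by how many other pairs reached that smallest value). The genes called ran from 173 to 431 in Gata1 wells (225 without replicate 2 and the lowest without replicate 4), 43 to 61 in Gata2 wells (lowest without 8), 1 to 7 in Gata3 wells and 96 to 153 in Zfpm1 wells (lowest without 2). Depth limits Gata1: its CD135-high sums held 0 to 2 counts on LCE plates, and under thinning it had no value in wells with Gata2 or Zfpm1. Without a filter on low counts Gata1 by GFP was called (-0.79, adjusted p = 0.0355).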
